A study of Homo sapiens with 8 samples.

Results

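The 10 genes described here are the NF-κB subunits RELA, RELB, NFKB1 and NFKB2, the inhibitors NFKBIA, TNFAIP3 and TNIP1, the ubiquitin ligases BIRC2 and BIRC3, and the cytokine LTB. They are 10 of the 20263 genes in a table of TPM, a transcript level that is corrected for length and has a fixed sum in each library, found by matching Ensembl identifiers to symbols, and each of the 10 had 1 matching entry. The set was chosen by its TPM under EB and DMSO in these same libraries, so the treated and control values of these 10 genes are given as a description. No p is given for any of the 10. How many and which of them the fit over all genes called is stated as a description, and nothing is read from it. The cells were PANC-1, an established line from a human pancreatic ductal carcinoma. One group received 10 μM Eupalinolide B (EB), a compound extracted from Eupatorium lindleyanum, for 24 h, and the other received the solvent DMSO alone. Each group had 4 RNA sequencing libraries, named DMSO 1 to 4 and EB 1 to 4 below. The methods give 4 biological replicates per group, but also mention sequencing in triplicates. The value columns carry the letters C and H. C was read as control, and H, which no source used here explains, as EB. All values come from 1 cell line, 1 dose and 1 time point.

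NF-κB is a family of dimeric transcription factors that inhibitor proteins of the IκB family hold in the cytoplasm. Ligands of the TNF, IL-1 and Toll-like receptors activate the IKK kinase complex, which marks the inhibitors for degradation and frees the dimers to enter the nucleus. Several genes that the dimers switch on encode their own inhibitors, among them NFKBIA (IκBα), TNFAIP3 (the ubiquitin-editing enzyme A20) and TNIP1 (an A20-binding adaptor), which close negative feedback loops. In a second, non-canonical branch, receptors such as the one for lymphotoxin, of which LTB is a subunit, lead to processing of NFKB2 and to RELB-containing dimers.

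The letters of the promoters are shown first because κB sites are the DNA elements that the family binds. Promoter windows of 300 bases, from 250 before to 50 after an annotated transcription start, were available from RefSeq (GRCh38.p14) for 9 of the 10 genes (all but RELB). The 10-base κB consensus was searched on both strands, and capitals mark its matches. The 4 windows below belong to the genes in which no EB library reached a DMSO library, and are written 5′ to 3′ on the strand of the gene. They lie at chr6:137867009-137867308 (plus strand, TNFAIP3), chr14:35404700-35404999 (minus strand, NFKBIA), chr11:102317234-102317533 (plus strand, BIRC3) and chr6:31582376-31582675 (minus strand, LTB).
TNFAIP3: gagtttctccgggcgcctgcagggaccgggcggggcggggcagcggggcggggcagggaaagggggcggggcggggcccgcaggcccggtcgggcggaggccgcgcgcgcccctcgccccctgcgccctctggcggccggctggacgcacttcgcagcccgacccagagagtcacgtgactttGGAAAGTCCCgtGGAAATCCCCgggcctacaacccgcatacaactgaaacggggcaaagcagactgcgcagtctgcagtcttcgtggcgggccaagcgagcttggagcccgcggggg
NFKBIA: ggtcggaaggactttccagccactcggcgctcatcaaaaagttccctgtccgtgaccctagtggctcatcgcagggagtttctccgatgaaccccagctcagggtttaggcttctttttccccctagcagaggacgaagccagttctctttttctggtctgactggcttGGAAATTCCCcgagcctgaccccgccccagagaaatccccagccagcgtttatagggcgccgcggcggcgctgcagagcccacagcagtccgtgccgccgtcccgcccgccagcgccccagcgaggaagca
BIRC3: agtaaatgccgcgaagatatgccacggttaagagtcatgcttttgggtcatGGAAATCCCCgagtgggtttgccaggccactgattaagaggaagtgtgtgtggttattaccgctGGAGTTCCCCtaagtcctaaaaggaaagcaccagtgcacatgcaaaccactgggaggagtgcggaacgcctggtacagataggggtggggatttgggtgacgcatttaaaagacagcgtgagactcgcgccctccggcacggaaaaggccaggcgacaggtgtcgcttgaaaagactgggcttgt
LTB: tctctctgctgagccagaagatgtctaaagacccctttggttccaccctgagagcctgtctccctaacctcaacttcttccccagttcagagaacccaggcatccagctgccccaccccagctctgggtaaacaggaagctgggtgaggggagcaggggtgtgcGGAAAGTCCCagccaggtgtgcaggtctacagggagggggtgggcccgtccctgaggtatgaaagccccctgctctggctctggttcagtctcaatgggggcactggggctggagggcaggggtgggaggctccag

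TNFAIP3 had a pair of matches that began 67 and 55 bases before the start. NFKBIA had 1 match, 81 bases before the start, and LTB had 1, 86 bases before the first of its 2 annotated starts. The matches of BIRC3 lay farther away, at 199 and 135 bases. The match of LTB and the upstream match of TNFAIP3 were spelled the same, and so were the downstream match of TNFAIP3 and the upstream match of BIRC3. For NFKB1, NFKB2 and TNIP1, 30 bases around a match are shown, since these genes have several annotated starts and only some of their windows held a match.
NFKB1, 49 bases before start 1: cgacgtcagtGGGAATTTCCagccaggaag
NFKB2, 78 bases before start 2: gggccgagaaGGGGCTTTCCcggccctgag
NFKB2, 21 bases before start 3: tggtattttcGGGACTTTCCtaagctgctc
TNIP1, 42 bases before start 2: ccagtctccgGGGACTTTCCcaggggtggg

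NFKB2 held matches before 2 of its 3 starts, and overlapping matches on both strands 107 and 106 bases before start 2 count as 1 site. In all, 7 of the 9 genes and 9 of their 16 windows held a match, against 5.91% of the 35116 promoter windows and 7.09% of the 27305 genes in the RefSeq table. The 2 annotated starts of LTB are neighbouring bases, so the same site counts in both of its windows. The windows of RELA and BIRC2 held none. A match describes the letters of the window and does not show that a factor binds there, and a window without one says nothing about sites elsewhere.

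**Figure D1:**
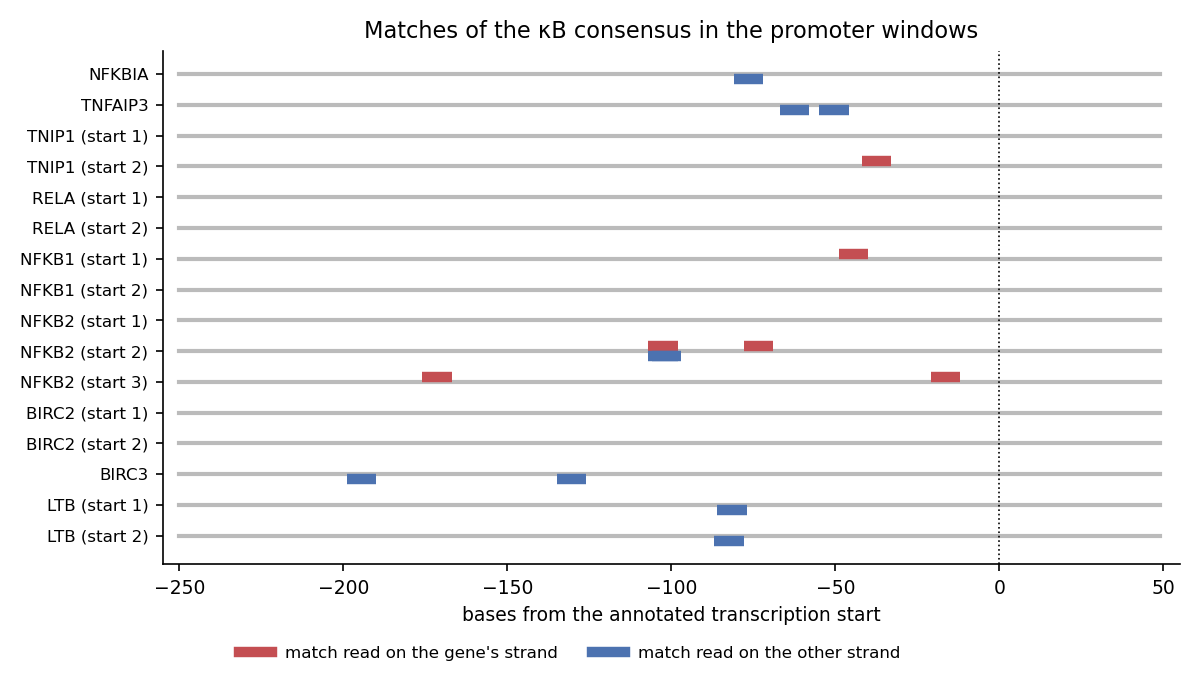
Positions of κB consensus matches in the 16 promoter windows of 9 genes. The horizontal axis gives bases from the annotated transcription start (0, dotted line), each grey bar is 1 window, and red and blue blocks are matches on the strand of the gene and on the other strand. Matches lie within 87 bases before a start in NFKBIA, TNFAIP3, TNIP1, NFKB1 and LTB, and no block is drawn for RELA or BIRC2.

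In the DMSO libraries the inhibitors NFKBIA and TNIP1 stood highest. TPM is corrected for transcript length, so levels of different genes can be set side by side. By median TPM the order was NFKBIA (168), TNIP1 (118), NFKB2 (71.2), RELA (70.0), RELB (34.5), NFKB1 (29.1), TNFAIP3 (18.9), BIRC2 (16.4), BIRC3 (14.7) and LTB (3.76). NFKB2 and RELA overlapped in range, as did each neighbouring pair from RELB down to BIRC3, so their order is not resolved. In the EB libraries RELA (72.7), TNIP1 (69.1) and NFKBIA (60.9) had overlapping ranges at the top, followed by NFKB2 (46.7). BIRC2 (21.8), RELB (18.2) and NFKB1 (17.7) again overlapped. BIRC3 (3.73), TNFAIP3 (1.72) and LTB (0.0551) came last, each clear of the next, so that TNFAIP3 and BIRC3, level with BIRC2 under DMSO, lay below it under EB.

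**Figure D2:**
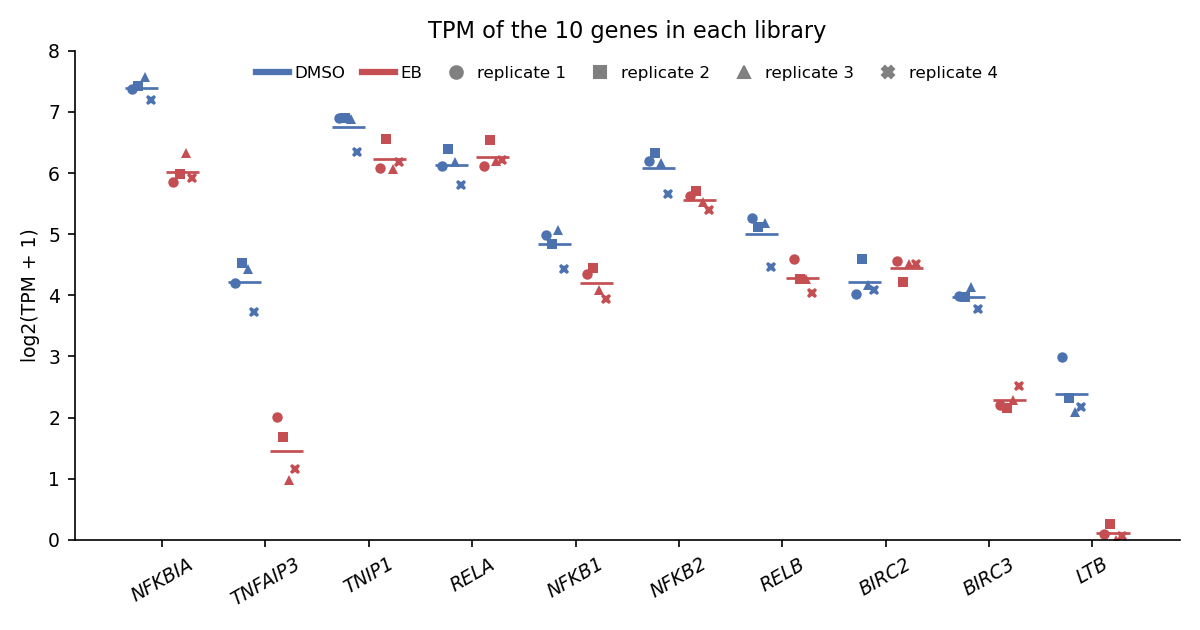
TPM of the 10 genes in each library on the log2(TPM + 1) scale. Each symbol is 1 library, blue for DMSO and red for EB, and the horizontal lines are means of 4 libraries. NFKBIA, TNFAIP3, BIRC3 and LTB show no overlap between groups, and DMSO 4 (cross) is the lowest DMSO library for NFKBIA, TNFAIP3, TNIP1, RELA, NFKB1, NFKB2, RELB and BIRC3.

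LTB, the membrane-anchored β chain of lymphotoxin, was the ligand of the set. Its gene lies at chr6:31580525-31582522 on the minus strand. LTB TPM was 6.90, 4.01, 3.25 and 3.50 in DMSO 1 to 4, and 0.0640, 0.200, 0.00 and 0.0460 in EB 1 to 4. All 4 EB libraries lay below all DMSO libraries, and EB 3 was listed at 0. The log2 fold change on log2(TPM + 1) was −2.29 (SE 0.19), and with a pseudocount of 0.1 it was −4.72, because the added constant is larger than the EB levels. In a bulk library, fewer cells with the transcript and less of it per cell cannot be told apart, here and for every gene below.

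BIRC2 and BIRC3 (cIAP1 and cIAP2) are paralogous ubiquitin ligases at the TNF receptor complex, and their genes are neighbours at chr11:102347211-102378670 and chr11:102317484-102339403, both on the plus strand. BIRC3 TPM was 14.8, 14.6, 16.5 and 12.7 in DMSO 1 to 4 and 3.61, 3.48, 3.86 and 4.75 in EB 1 to 4. BIRC2 TPM was 15.3, 23.2, 16.9 and 15.9 in DMSO 1 to 4 and 22.6, 17.5, 21.7 and 21.9 in EB 1 to 4. BIRC3 was thus lower in every EB library (log2 fold change −1.67, SE 0.13), whereas the BIRC2 ranges overlapped (0.23, SE 0.16). The ratio of BIRC3 to BIRC2 within a library, which no scaling of that library can change, was 0.969, 0.631, 0.977 and 0.796 under DMSO and 0.160, 0.199, 0.177 and 0.217 under EB. The ratio did not overlap between groups. A long noncoding RNA on the opposite strand, ENSG00000288528, overlaps BIRC3 by 11103 bases, and the strand setting of the counting is not given in the sources used here.

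RELA (p65), the transactivating subunit of the canonical dimer (chr11:65653599-65663090, minus strand), had overlapping ranges in the groups. Its TPM was 68.4, 83.1, 71.5 and 55.1 in DMSO 1 to 4 and 68.3, 92.4, 72.2 and 73.2 in EB 1 to 4. DMSO 4 was the lowest and EB 2 the highest library, and the log2 fold change was 0.14 (SE 0.16). Its sign was not stable, since with TPM rescaled over nuclear genes it was −0.04.

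RELB, the partner of p52 in the non-canonical branch (chr19:45001461-45038192, plus strand), had a TPM of 37.3, 33.6, 35.3 and 21.1 in DMSO 1 to 4 and 23.2, 18.2, 18.2 and 15.4 in EB 1 to 4. EB 1 exceeded DMSO 4, and the other EB libraries lay below every DMSO library. The log2 fold change was −0.71 (SE 0.20). NFKB1, whose product is processed to p50 (chr4:102501330-102617302, plus strand), ranged from 20.7 to 32.6 TPM under DMSO and from 14.4 to 20.8 under EB (log2 fold change −0.63, SE 0.18). NFKB2, the precursor of p52 (chr10:102394110-102402524, plus strand), ranged from 49.2 to 79.3 under DMSO and from 41.1 to 51.0 under EB (log2 fold change −0.52, SE 0.16). In both genes only DMSO 4 fell within the EB range. The differences of these 3 subunits were smaller than those of LTB, BIRC3, NFKBIA and TNFAIP3.

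The 3 inhibitors were lower to very different degrees. TNFAIP3 (chr6:137867214-137883314, plus strand) had a TPM of 17.3, 22.0, 20.5 and 12.3 in DMSO 1 to 4 and 3.03, 2.20, 0.973 and 1.24 in EB 1 to 4. All 4 EB libraries lay far below the lowest DMSO library, and the ratio of the means was 9.69. The log2 fold change was −2.76 (SE 0.25). NFKBIA (chr14:35401079-35404749, minus strand) had a TPM of 164, 171, 188 and 145 in DMSO 1 to 4 and 56.8, 62.5, 79.2 and 59.2 in EB 1 to 4. These groups did not overlap either, with a log2 fold change of −1.37 (SE 0.14). TNIP1 (chr5:151029945-151093577, minus strand) was at 119, 118, 117 and 80.5 in DMSO 1 to 4 and 66.5, 93.2, 66.3 and 71.6 in EB 1 to 4. DMSO 4 lay apart from the other DMSO libraries and below EB 2, and the log2 fold change was −0.54 (SE 0.17). Opposite-strand long noncoding RNAs overlap TNFAIP3 (WAKMAR2, 1020 bases), TNIP1 (ENSG00000289970, 423 bases) and RELA (RELA-DT, 103 bases). None of these noncoding genes is among the genes of the table.

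Over all 11725 genes that reached 1 TPM in 4 or more libraries, limma with Benjamini-Hochberg adjustment put 25.1% lower and 15.2% higher with EB at an adjusted p under 0.05. By the same criterion 8 of the 10 genes were lower, all except RELA and BIRC2, and 0 were higher. LTB reached 1 TPM in the DMSO libraries alone, so it passed the filter only through the group where it was high. With an unadjusted p under 0.05 and a log2 fold change under −1.5, 3 of the 10 were lower (TNFAIP3, LTB and BIRC3), against 1.54% of all tested genes. All EB libraries lay below all DMSO libraries in 4 of the 10 and above in 0, against 20.3% and 16.6% of tested genes. Since this contrast chose the genes, nothing is read from these counts. Their median log2 fold change was −0.67, against −0.11 over all tested genes. The 8 became 4 without DMSO 3, 5 without EB 3 and 5 without EB 4, where 17.7%, 18.0% and 19.3% of all tested genes were lower, and the count was 6 or more without any other single library.

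Each overlap among those 8 genes involved DMSO 4. Transcripts of the mitochondrial genome made up 39.0% of TPM in DMSO 4, 17.0% to 21.1% in the other DMSO libraries and 11.6% to 20.3% in the EB libraries. TPM has a fixed sum, so a larger mitochondrial share leaves less of that sum to the nuclear genes together. With the nuclear genes rescaled to that sum, 8 of the 10 genes had all EB libraries below all DMSO libraries, and so did 37.2% of all tested genes. RELB then ranged from 34.5 to 45.0 under DMSO and from 19.3 to 26.3 under EB. For TNIP1 the ranges were 132 to 150 and 75.3 to 109. DMSO 4 was still the lowest DMSO library for both genes. Without DMSO 4 the count was also 8, beside 39.5% of all tested genes, and without EB 2 it was 7, beside 25.7%. Fewer libraries make it easier for the groups of any gene to separate. The part of the mitochondrial share in these overlaps and in the other differences was not tested.

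A within-library ratio, chosen after the values were seen, removes the scaling of the library altogether. NFKBIA relative to RELA, the inhibitor to a subunit it binds, was 2.40, 2.06, 2.63 and 2.64 in DMSO 1 to 4 and 0.831, 0.677, 1.10 and 0.809 in EB 1 to 4. NFKBIA TPM thus exceeded RELA TPM in every DMSO library and in EB 3 alone of the EB libraries. TNFAIP3 relative to RELA ranged from 0.223 to 0.287 under DMSO and from 0.0135 to 0.0443 under EB. TNIP1 relative to RELA, from 1.42 to 1.74 and from 0.918 to 1.01, also separated the groups, DMSO 4 included.

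The same held for the other subunits. NFKB2 relative to RELA ranged from 0.893 to 1.05 under DMSO and from 0.552 to 0.707 under EB. For NFKB1 the ranges were 0.332 to 0.456 and 0.196 to 0.284, and for RELB 0.382 to 0.545 and 0.198 to 0.340. BIRC2 relative to RELA overlapped, from 0.224 to 0.289 and from 0.190 to 0.330. In all, 8 of the 9 ratios were lower in every EB library than in every DMSO library, against 31.5% of the other tested genes set against RELA in the same way. Such ratios show unequal change and not that RELA itself was constant.

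**Figure D3:**
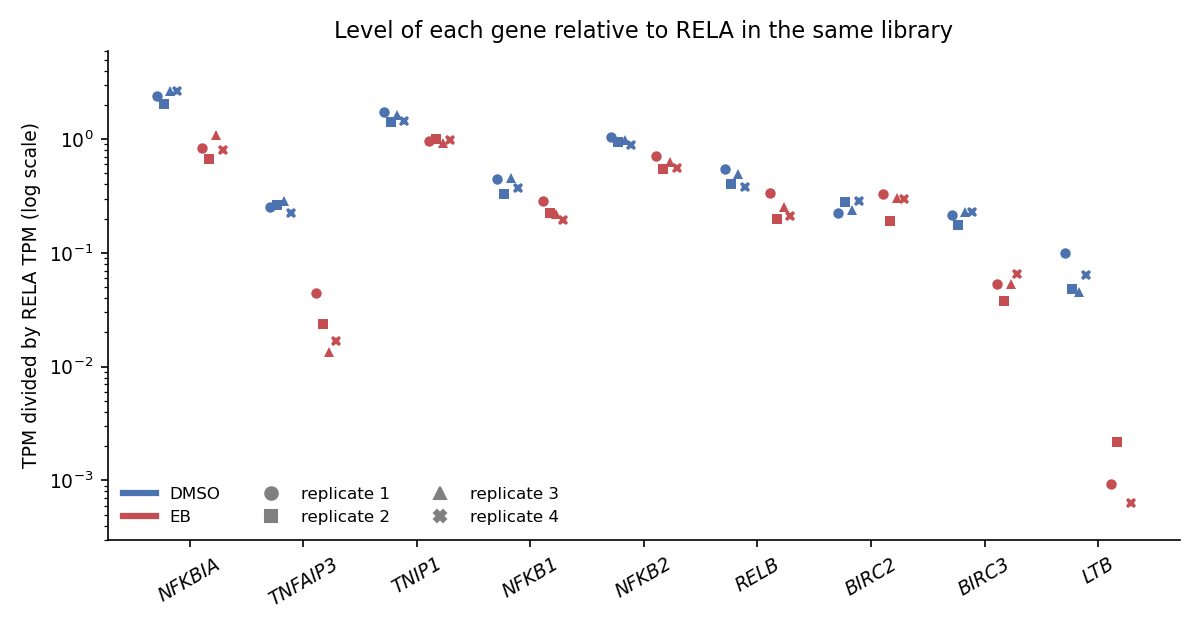
TPM of 9 genes divided by RELA TPM in the same library, on a log axis. Each symbol is 1 library, blue for DMSO and red for EB, and LTB in EB 3, listed at 0, is not drawn. The groups separate for all genes shown except BIRC2.

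Other scalings left the 8 genes lower with EB. Median-ratio scaling and quantile normalization moved the median of all genes from −0.11 to 0.01 and 0.02, and nuclear-only rescaling moved it to −0.28. Over these and the removal of a length and GC trend, TNFAIP3 ranged from −3.01 to −2.55, LTB from −2.76 to −2.11, BIRC3 from −1.88 to −1.39 and NFKBIA from −1.69 to −1.24. NFKB1, NFKB2, RELB and TNIP1 stayed between −0.90 and −0.39. BIRC2 ranged from 0.05 to 0.37. When 1 library was left out at a time, TNFAIP3 ranged from −2.94 to −2.60 and LTB from −2.39 to −2.09.

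**Figure D4:**
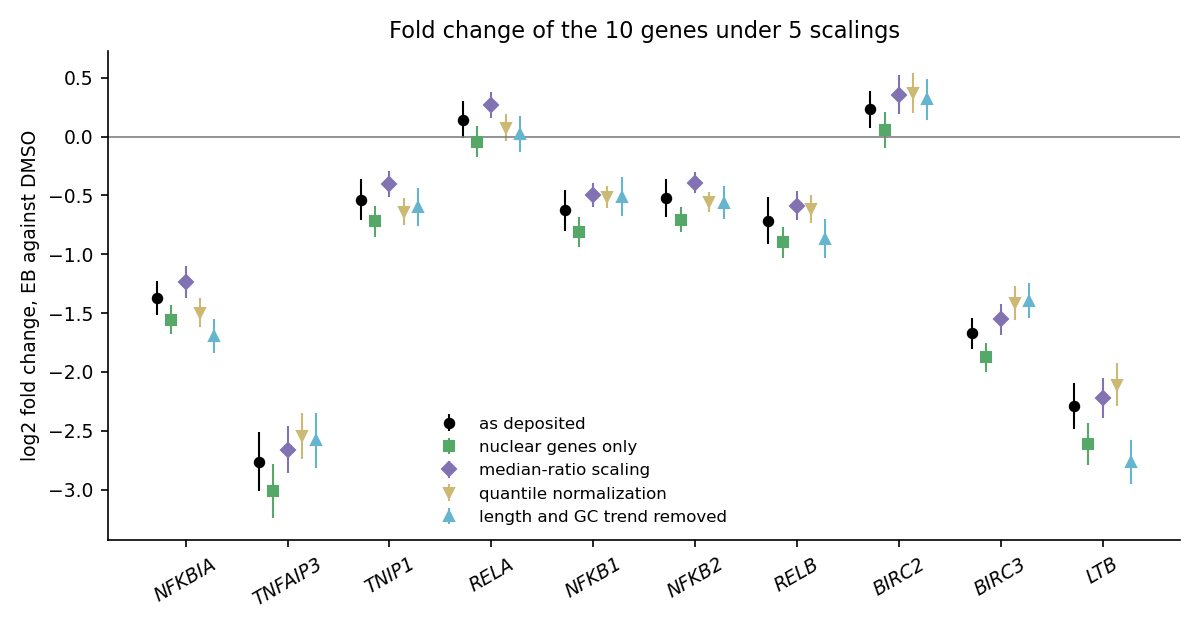
Log2 fold change of EB against DMSO for the 10 genes under 5 scalings of the TPM, with bars of ±1 SE from limma. Values below the zero line are lower with EB. TNFAIP3 is the lowest gene under 4 of the scalings, LTB under removal of the length and GC trend, and RELA lies within 1 SE of zero except under median-ratio scaling.

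The wider pathway was described with 162 further genes in 8 role lists. Of these genes, 161 had a row and 118 passed the filter on low TPM. The lists were chosen with earlier results of these same libraries known. Their shares and p-values, here and below, are therefore a description, and nothing is read from setting them against all tested genes. Of the 118, 42 (35.6%) fell and 14 (11.9%) rose at an adjusted p under 0.05 by limma with Benjamini-Hochberg adjustment, against 25.1% and 15.2% of all tested genes. The median log2 fold change was −0.24. Without EB 3 only 8 rose, beside 1270 of all 11725 tested genes. With nuclear genes only 67 fell, beside 4954 of all 11967 genes tested in that setting. Under median-ratio scaling 28 rose and 42 fell, beside 3146 and 3001 of all 11725 genes. Under quantile normalization 22 rose and 38 fell, beside 2792 and 2759 of all 11725.

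Among the upstream signals, 0 of 13 ligands passed the filter. TNF, the name-giving ligand, named outside the rule, was the highest of these, at 0.716 to 1.69 TPM under DMSO and 0.00 to 0.136 under EB. Of the 9 tested receptors, 3 rose and 3 fell (33.3% each), against 15.2% and 25.1% of all tested genes. TNFRSF12A, the receptor for the cytokine TWEAK, rose from 60.3 ± 15.2 to 244 ± 25.8 TPM (SD, n = 4 in each group; log2 fold change 2.03, SE 0.20, limma adjusted p = 0.000156). TLR6 (0.94) and TNFRSF25 (0.61) rose as well on the log2 scale. TLR6 was near the floor of the filter under DMSO, at 0.787 to 1.18 TPM, against 2.11 to 4.21 under EB. It reached 1 TPM in every EB library but, under DMSO, in DMSO 3 alone. With a pseudocount of 0.1 its log2 fold change was 1.43. TNFRSF1B (−0.61), the second TNF receptor, IL1R1 (−0.59), the signaling IL-1 receptor, and TNFRSF13C (−0.46), the BAFF receptor, fell. TNFRSF1B lost the call under quantile normalization. TNFRSF13C passed narrowly (limma adjusted p = 0.0494) and lost the call under 4 alternatives, among them no filter and an intensity trend, and in 7 of the 8 fits that left out 1 library, the exception being the fit without DMSO 4. The main TNF receptor TNFRSF1A (log2 fold change −0.05) and the lymphotoxin receptor LTBR (0.17) were not called, and are named outside the rule because their ligands are discussed here.

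Of 25 tested adaptors and ubiquitin enzymes, 3 rose and 3 fell (12% each), against 15.2% and 25.1% of all tested genes. BCL10 (log2 fold change 0.73), a CARD-containing scaffold, UBE2D2 (0.67), a ubiquitin-conjugating enzyme, and CARD10 (0.63), a partner of BCL10, rose. TRAF5 (−0.66), RIPK1 (−0.45), a kinase scaffold of the TNF receptor complex, and TICAM1 (−0.37), the adaptor of TLR3, fell. UBE2D2, TRAF5, RIPK1 and TICAM1 each lost the call under at least 1 other scaling. With 1 library left out, the call was lost in 6 of 8 fits for RIPK1 and TICAM1, in 5 for UBE2D2, in 3 for CARD10 (without EB 1, EB 2 or EB 3) and in 2 for TRAF5 (without DMSO 2 or DMSO 3).

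Of 17 tested kinases and kinase partners, 5 fell (29.4%) and 1 rose (5.88%), against 25.1% and 15.2% of all tested genes. MAP3K8 (TPL2), which is held by the NFKB1 precursor p105, fell from 6.60 ± 1.09 to 2.03 ± 0.705 TPM (SD, n = 4; log2 fold change −1.34, limma adjusted p = 0.000759). FBXW11 (−0.89), a subunit of the ligase that ubiquitinates IκB, TAB3 (−0.78) and TAB2 (−0.74), partners of the kinase TAK1, and IKBKB (−0.70), the IKKβ kinase, fell too. IKBKG (NEMO), the regulatory subunit of IKK, was the 1 that rose (0.72, limma adjusted p = 0.00315). IKBKB lost the call without DMSO 1, DMSO 2, DMSO 3, EB 3 or EB 4. The third IKK subunit, CHUK (IKKα), named after its value was seen, was not called (0.25, limma adjusted p = 0.251).

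The 8 remaining subunit and IκB family genes were split, with 4 lower (50%) and 2 higher (25%), against 25.1% and 15.2% of all tested genes. NFKBIZ (IκBζ), a nuclear cofactor, was at 14.5, 12.7, 14.7 and 10.1 TPM in DMSO 1 to 4 and 1.55, 2.14, 1.53 and 0.726 in EB 1 to 4. All EB libraries lay below all DMSO libraries, and NFKBIZ fell by 2.51 on the log2 scale (SE 0.20, limma adjusted p = 4.8e-05). REL (c-Rel) fell from 4.08 ± 1.20 to 1.18 ± 0.278 TPM (SD, n = 4; log2 fold change −1.20, limma adjusted p = 0.000933). BCL3 (−0.71), another nuclear IκB protein, and NFKBID (−0.47) fell as well. NFKBIB (IκBβ; 0.59) and NKAP (0.40) rose, NFKBIB losing the call once the length and GC trend was removed and NKAP with nuclear genes only. With 1 library left out, NFKBID and NKAP lost the call in 3 of 8 fits each and NFKBIB in 2. NFKBIE (0.00) and the repressor NKRF (−0.23) were not called. Of the 5 REL-homology subunits, RELA was the 1 without a lower value.

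Of 20 other tested brakes on the pathway, 5 fell (25%) and 2 rose (10%), against 25.1% and 15.2% of all tested genes. OTUD4, a deubiquitinase, fell from 11.4 ± 1.41 to 5.13 ± 1.08 TPM, and ZC3H12A, the RNase Regnase-1 that degrades inflammatory mRNAs, fell from 21.1 ± 3.68 to 9.95 ± 0.541 TPM (SD, n = 4; limma adjusted p = 0.00111 and 0.000845). RNF11 (log2 fold change −0.66) and ITCH (−0.66), both part of the A20 complex, fell, as did PIAS1 (−0.46), which falls outside the rule for naming. TNIP2 (0.74), an A20-binding protein like TNIP1, and COMMD1 (0.68), which promotes RELA turnover, rose. ITCH, TNIP2 and COMMD1 lost the call once the length and GC trend was removed, and TNIP2 also did in 5 of the 8 fits that left out 1 library. The deubiquitinase CYLD, named after its value was seen, had a log2 fold change of −0.46 and was not called.

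Among 31 tested target genes, 16 fell (51.6%) and 2 rose (6.45%), against 25.1% and 15.2% of all tested genes. The list held 1 further gene without a matching row. CFB and C3, complement components, fell from 5.22 ± 0.936 to 0.258 ± 0.242 and from 5.35 ± 0.882 to 0.508 ± 0.116 TPM (SD, n = 4). Both, and LCN2, which is named outside the rule, reached 1 TPM in the DMSO libraries alone. They passed the filter through the group where they were high, so the filter fixed their direction. IRF1, an interferon regulatory factor, fell from 61.8 ± 9.60 to 13.6 ± 5.94 TPM (log2 fold change −2.17, limma adjusted p = 0.000278). STAT5A (−1.65), the immunoproteasome subunit PSMB9 (−1.40) and the autophagy regulator DRAM1 (−1.32) also fell. The 2 that rose, PLK3 (0.77) and the autophagy receptor SQSTM1 (0.43), were named after their values were seen. The list median was −0.53.

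Of 8 tested chemokines, 6 fell (75%) and 1 rose (12.5%), against 25.1% and 15.2% of all tested genes. CCL2, named after its value was seen, was not called (log2 fold change 0.10). CXCL1, the most abundant, fell from 249 ± 31.0 to 115 ± 6.51 TPM (SD, n = 4; log2 fold change −1.10). The related neutrophil attractants CXCL3 (−2.32), CXCL5 (−1.78), CXCL2 (−1.72) and CXCL6 (−1.61) fell, and so did CX3CL1 (−1.08). CXCL3 and CX3CL1 reached 1 TPM in the DMSO libraries alone, so the filter fixed their direction too. CXCL8, which acts on the same receptors and was named after its value was seen, rose from 36.0 ± 9.31 to 61.9 ± 13.7 TPM (log2 fold change 0.78, limma adjusted p = 0.023), with ranges that overlapped. Neither pathway lists nor members stand for independent measurements, since all come from the same 8 libraries.

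**Figure D5:**
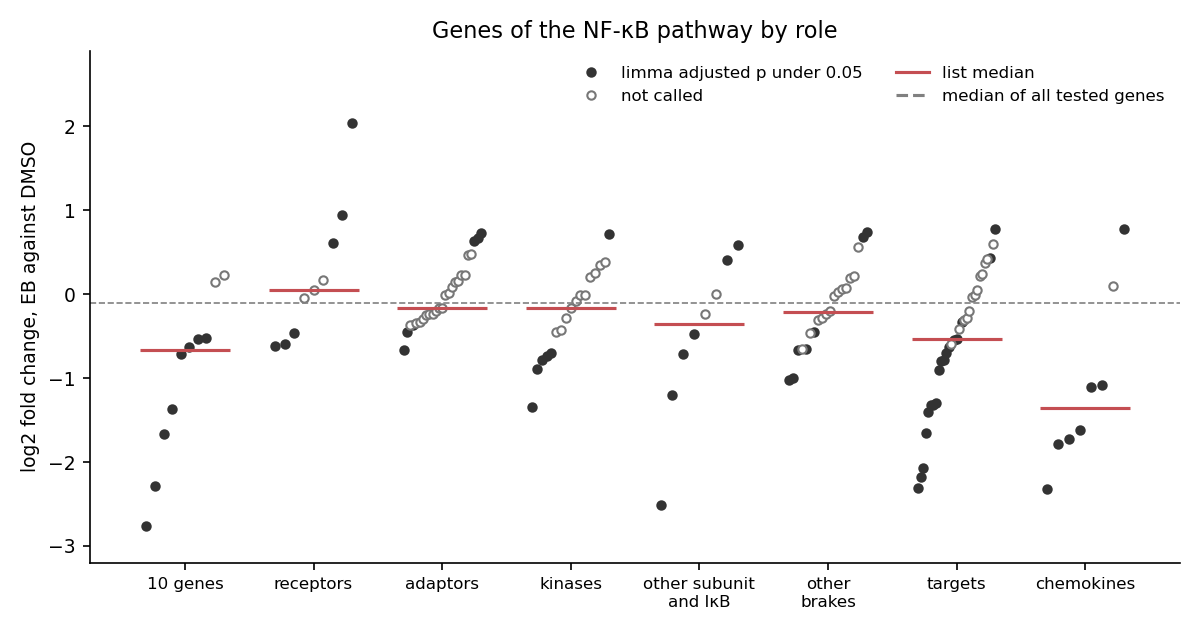
Log2 fold change of EB against DMSO for the 10 genes and 7 pathway lists by role (no ligand was tested). Filled circles passed an adjusted p under 0.05 in limma, open circles did not, red lines are list medians and the dashed line is the median of all tested genes. The chemokine median, −1.36, and that of the 10 genes, −0.67, are the lowest. Both are a description only, since this contrast chose the 10 genes and the lists were chosen with earlier results known.

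The tested genes whose log2(TPM + 1) followed TNFAIP3 most closely over the 8 libraries were LRBA (Pearson r = 0.997), BLTP1 (0.996), BBS10 (0.994), DPYD (0.994) and NPAS2 (0.994). All 5 were lower in every EB library than in every DMSO library, as were 20.3% of all tested genes. LRBA, for example, was at 12.8 to 21.8 TPM under DMSO and 2.56 to 4.51 under EB. The groups of TNFAIP3 did not overlap, so a pick by correlation with it favours genes that separate. The points share the libraries and the difference between the groups, so the correlations and this separation are a description only. None of the 5 is in the pathway lists.

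Markers of the cell type were checked against the label. Of 10 duct and epithelial markers, 5 (KRT8, KRT18, KRT19, SOX9 and MUC1) had at least 1 TPM in every library, while KRT7, EPCAM, CDH1 and CFTR were among those below 1 in every library. Their summed TPM was 1145 to 1613 under DMSO and 3267 to 3654 under EB. The keratins make up most of this sum, and KRT8, KRT18 and KRT19 rose (log2 fold change 1.20, 1.49 and 1.80), whereas SOX9 fell from 149 ± 19.3 to 57.1 ± 11.9 TPM and MUC1 from 18.5 ± 2.27 to 3.85 ± 1.36 TPM (SD, n = 4; log2 fold change −1.38 and −2.04). Of 12 leukocyte markers 2 (CD8A and CORO1A) had at least 1 TPM in every library. PTPRC and 3 others were at 0 in all, and the sum of the 12 was 9.51 to 16.1 under DMSO and 12.0 to 15.8 under EB. Of 8 fibroblast markers 1 (COL1A2) had at least 1 TPM in every library, and 3 were at 0 in all. The sum was 64.1 to 91.8 under DMSO and 38.8 to 50.7 under EB. COL1A2 makes up most of it, and fell from 79.4 ± 12.2 to 43.9 ± 5.53 TPM (SD, n = 4). The part of the epithelial and fibroblast sums in the differences above was not tested.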

How the data were processed

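RNA sequencing of PANC-1 cells gave 8 libraries, 4 with EB and 4 with DMSO. The methods name CLC Genomics Workbench for trimming, mapping and counting, and also list Trimmomatic, Bowtie2, HISAT2 and StringTie. The authors deposited TPM, computed within each library for 20263 genes, and which of these tools gave them is not stated. The methods give a mouse and a human build (GrCM38, hg38), and human identifiers were matched here to GENCODE 44 on hg38. No counts were used, so depth and the precision it gives are unknown here. The groups were fitted on log2(TPM + 1) with lmFit and eBayes of limma 3.58.1 (R 4.3.3), over 11725 genes that reached 1 TPM in 4 or more libraries, with Benjamini-Hochberg adjustment over all of them.

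The members and lists were chosen with earlier results of these data known. Genes named are the 10 members, of each list the genes at an adjusted p under 0.05 (up to 6 by absolute fold change, or all of a list with 8 genes or fewer), and the 5 genes most correlated with TNFAIP3. Exceptions, marked in the text, were chosen after their values were seen.

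The fit was repeated after quantile normalization, after median-ratio scaling, over nuclear genes only, with a length and GC trend removed, with a pseudocount of 0.1, without the filter, with a minimum of 5 TPM, with an intensity trend, with a fold threshold of 1.5 and unadjusted p, with a replicate block and without each library. The ratio to RELA was added after seeing the data. The fit was tested on simulated data. Tables were handled with Python 3.11.15, numpy 2.4.6, pandas 2.3.3 and scipy 1.17.1, and plots drawn with matplotlib 3.10.9.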

Additional observations from a re-analysis of the deposited data

Results flagged for a closer look

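Each group of 4 libraries of the 54 named genes was examined for 1 library far from the others, by its gap to the nearest library divided by the range of the group on log2(TPM + 1). Of 108 groups 8 passed Dixon's critical value, and chance flags about 1 in 20 groups. DMSO 4 was the far library in 4 of them. In TNIP1 it stood at 80.5 TPM against 117 to 119 in the others (gap ratio 0.957), in BCL10 at 12.2 against 16.3 to 16.6 (0.944), in CARD10 at 4.47 against 7.77 to 8.18 (0.911) and in TNFRSF12A at 37.8 against 65.2 to 71.5 (0.854). DMSO 4 also had the largest mitochondrial share, and its part in these gaps was not tested.

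Among the EB libraries, EB 4 was the far library in TNFRSF12A, at 206 TPM against 254 to 260 (0.900), and in BCL10, at 23.5 against 26.6 to 27.1 (0.868). EB 2 was the far library in BIRC2, at 17.5 TPM against 21.7 to 22.6 (0.854), and in TRAF5, at 2.96 against 5.60 to 6.22 (0.851).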

How the results depend on the processing

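The values of the 10 genes kept their sign under every alternative but one, the RELA value of −0.04 with nuclear genes only. The count of members lower at an adjusted p under 0.05 in limma was 8 under each other scaling, pseudocount and trend. It was 7 of 9 tested at a TPM of at least 5, and ranged from 4 to 8 when 1 library was left out. Over all genes, 2872 were lower with a pseudocount of 0.1, 2935 with an intensity trend and 2211 of 9490 at a TPM of at least 5. Counts over all genes for the scalings and left-out libraries are given in the next paragraph. The count of members with all EB libraries below all DMSO libraries was 4 as deposited, beside 20.3% of all tested genes. It was 8 with nuclear genes only (37.2%) and 8 as ratios to RELA (31.5%). It was also 8 with median-ratio scaling and 6 with the length and GC trend removed. The share over all genes was not computed for those settings, so nothing is read from either count. With 1 library left out the count of members ranged from 4 to 8, and was 8 without DMSO 4 (39.5%).

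Over all genes, 1785 were higher and 2944 lower. Median-ratio scaling gave 3146 higher and 3001 lower, quantile normalization 2792 and 2759, nuclear genes only 1451 and 4954, removal of the length and GC trend 1146 and 2446, and the fold threshold with unadjusted p 63 and 181. With 1 library left out the counts ranged from 1270 to 1826 higher and from 2073 to 4333 lower. For the pathway genes, 14 higher and 42 lower became 28 higher with median-ratio scaling, 22 higher with quantile normalization, 67 lower with nuclear genes only, and 1 higher and 9 lower with the fold threshold. With 1 library left out they ranged from 8 to 15 higher and from 33 to 54 lower. The cause of these shifts was not tested.

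Of the 44 named pathway genes, 14 lost their call under at least 1 alternative, which made up 70 of the 740 values recomputed for these genes, and NKRF gained one in 3. NFKBIE, near 0 as deposited, was −0.16 with nuclear genes only, −0.14 with the length and GC trend removed, and ranged from −0.13 to 0.14 with 1 library left out (−0.08 without DMSO 2, −0.13 without DMSO 4, −0.01 without EB 1 and −0.07 without EB 2).

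Libraries with the same replicate number were not shown to be paired, since their deviations from the group means correlated at 0.183, 0.0463, −0.0879 and 0.284 and 2 of 4 matched their own number best. A replicate block gave 2231 genes higher and 3525 lower, 17 and 46 pathway genes, and 8 members lower. TICAM1 lost its call under the block. TPM without counts give no depth per library, so levels near 0, such as LTB under EB, carry no counting interval.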
